A study of Mus musculus with 2 samples.

Results

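The genes described here are 9 markers of CD11c-positive activated microglia, namely *Itgax*, *Gpnmb*, *Spp1*, *Lgals3*, *Cd9*, *Fabp5*, *Siglecf*, *Cd83* and *Cd86*. A marker was measured by every probe set, a group of short probes on the array that match its transcript, whose platform annotation gives that gene as its only symbol. On this rule 8 of the 9 genes were measured through 11 probe sets, of 34945 probe sets with exactly 1 symbol and 18193 genes that these name. *Siglecf* also goes by the older symbol *Siglec5*. *Spp1* has no probe set named in the annotation used here and is not analysed here. The genes were chosen with their values on these arrays known, so everything given for them below is a description without a test.

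The CD47 KO cells came from mice with the *Cd47* gene disrupted in the germ line (*Cd47*-/-), 6 animals of 12 to 16 wks of age. The WT cells came from 7 wild-type mice of 10 to 15 wks of age. In both groups the whole brain was digested with collagenase and DNase, and mononuclear cells were taken from a Percoll gradient, a preparation in which microglia are enriched but not sorted. RNA was pooled by genotype, amplified from 20 ng and hybridised to 1 array per genotype, so the spread between animals cannot be given, no p-value was computed, and genotype cannot be told apart from array, pool or age.

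*Itgax* encodes CD11c, which pairs with CD18 to form complement receptor 4 and is best known from dendritic cells. In the brain it appears on a small subset of microglia, above all in the white matter during development, aging and demyelination. Microglia of this kind take up myelin and lipids, and they express lysosomal, lipid-handling and adhesion genes together with genes of antigen presentation. CD47 on neighbouring cells binds SIRPα on microglia, an inhibitory receptor, and the comparison asks which genes differ in brain mononuclear cells that lack this ligand.

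Brightness was read as the MAS5 signal, which is on a linear scale. The median signal was 146 on the CD47 KO array and 161 on the WT array. A probe set counted as expressed when its signal was no lower than the array median in CD47 KO cells, in WT cells or in both. *Cd47* itself was lower on all of its 5 expressed probe sets, with Log2 ratios (KO/WT) of -1.86 to -1.45. Its signals were 334 to 1688 in CD47 KO cells, still above the median of that array, and 1017 to 5816 in WT cells. The labels give all mice as male. *Xist*, the RNA of X inactivation in females, had signals of 6530 on the CD47 KO array and 7070 on the WT array on its brightest probe set. *Eif2s3y*, a Y-linked gene, had signals of 461 on the CD47 KO array and 189 on the WT array on its brighter probe set, and its other probe set had 146 and 165 in the same order. The *Xist* signals on both arrays go against the labelled sex, and the part of sex in the marker values was not tested.

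Of the 10 expressed marker probe sets, 3 exceeded a 2-fold increase in CD47 KO cells, those of *Gpnmb*, *Itgax* and *Siglecf*, and 8 of the 10 were higher at all, against 50.7% of all expressed probe sets. No marker probe set was more than 2-fold lower. Among all 21167 expressed probe sets with 1 symbol, 3.95% were more than 2-fold higher and 5.49% more than 2-fold lower. Counted by gene on the probe set with the highest mean signal, 3 of 8 markers were more than 2-fold higher, where 3.56% of all 11695 expressed genes were, and no marker was more than 2-fold lower, where 5.46% of all genes were. With both arrays centred on their medians these shares of all genes were 4.96% higher and 4.04% lower, because centring moved the median Log2 ratio of all expressed genes by 0.14. *Gpnmb* and *Itgax* entered these counts through the CD47 KO array alone, so the threshold itself favoured a higher value there. With the array median required on both arrays, 1 of 6 marker genes was more than 2-fold higher, where 1.28% of all expressed genes were. In direction alone, 7 of the 8 markers were higher in CD47 KO cells, against 50.3% of all expressed genes. The median Log2 ratio of the 8 markers was 0.70, against 0.00 over all expressed genes.

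**Figure D1:**
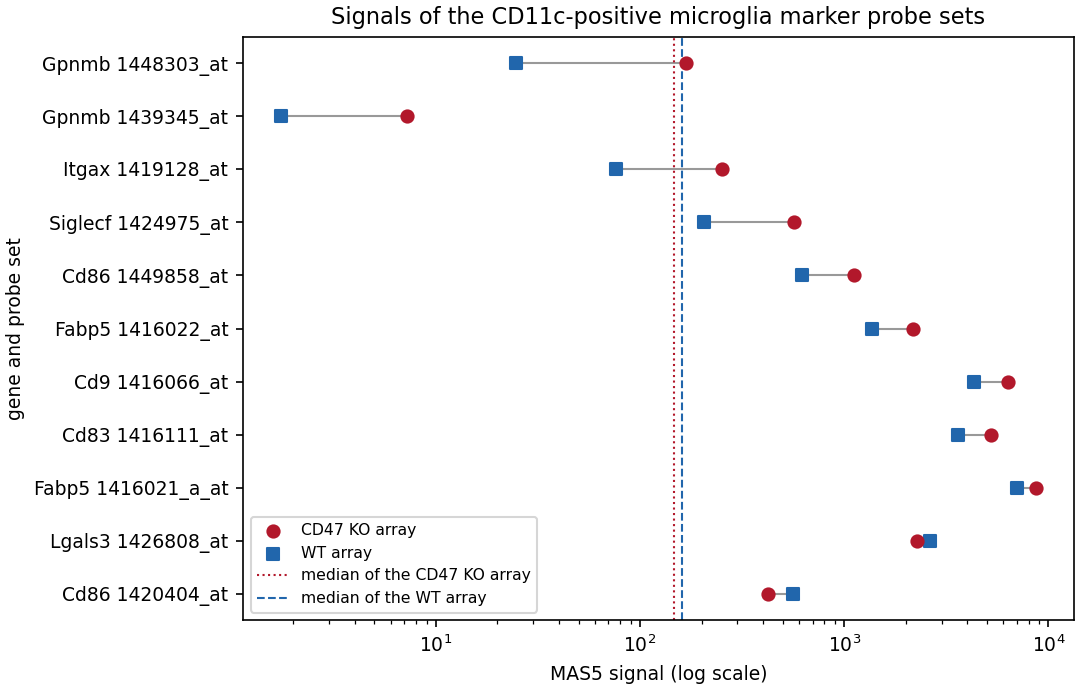
MAS5 signal (log scale) of each marker probe set on the CD47 KO array (circles) and the WT array (squares), 1 array of pooled RNA per genotype, with probe sets ordered by Log2 ratio and the median of each array as a vertical line. The upper 9 probe sets had a higher signal in CD47 KO cells, while *Lgals3* and 1 probe set of *Cd86* had a lower one, and only *Gpnmb* and *Itgax* crossed the array median between genotypes.

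The 3 genes past 2-fold encode surface proteins of phagocytes and were the dimmest markers. *Itgax* had a signal of 251 in CD47 KO cells and 76.6 in WT cells on its only probe set (1419128_at). The signal lay at the 60.7th percentile of the CD47 KO array and at the 35.0th percentile of the WT array, below its median. The Log2 ratio was 1.71, or 3.28-fold. In a mixed preparation such as this, more CD11c-positive cells and more *Itgax* RNA per cell cannot be told apart, and the same holds for the genes that follow.

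*Gpnmb* encodes a transmembrane glycoprotein of melanocytes, osteoclasts and lipid-laden phagocytes. Its brighter probe set (1448303_at) had a signal of 167 in CD47 KO cells and 24.8 in WT cells, a Log2 ratio of 2.75 (6.74-fold). The WT signal lay at the 17.6th percentile of its array, so the size of this ratio is uncertain, and with signals under 39.2, the 25th percentile over both arrays, raised to that value it was 2.09. The dimmer probe set (1439345_at) had 7.23 in CD47 KO cells and 1.74 in WT cells, a Log2 ratio of 2.06, but these signals lay at the 9.36th and 1.98th percentiles of their arrays and the probe set was not counted as expressed. Both probe sets were higher in CD47 KO cells with the signals as deposited. With the 25th percentile of all signals added to both values, the Log2 ratio of the brighter one was 1.69 and that of the dimmer one 0.18.

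*Siglecf* encodes a sialic acid-binding receptor with inhibitory signaling, best known from eosinophils and alveolar macrophages. It had a signal of 570 in CD47 KO cells and 206 in WT cells on 1 probe set (1424975_at), a Log2 ratio of 1.47 (2.77-fold). Unlike *Gpnmb* and *Itgax*, it reached the array median in both genotypes. Those other two genes passed the signal threshold through the CD47 KO array alone, and a probe set that does so had to differ between arrays.

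Low signals scattered widely on these arrays, and the ratio of *Siglecf* was read against that scatter. The expressed probe sets were divided into 4 equal groups by mean signal. In the dimmest 25%, which holds *Gpnmb* and *Itgax*, 10.2% of probe sets were higher by more than 2-fold in CD47 KO cells and 13.7% lower by more than 2-fold. As both passed the threshold through the CD47 KO array alone, their places within that group were not read. In the next 25%, which holds *Siglecf*, 3.97% were more than 2-fold higher, and 0.831% reached the ratio of *Siglecf*. The SD of the Log2 ratio between probe sets of 1 gene, the only measure of error within these data, was 0.815 in the dimmest group and 0.572 in the next. It fell to 0.459 and 0.322 in the brighter groups, and it also holds probe effects and splice forms.

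**Figure D2:**
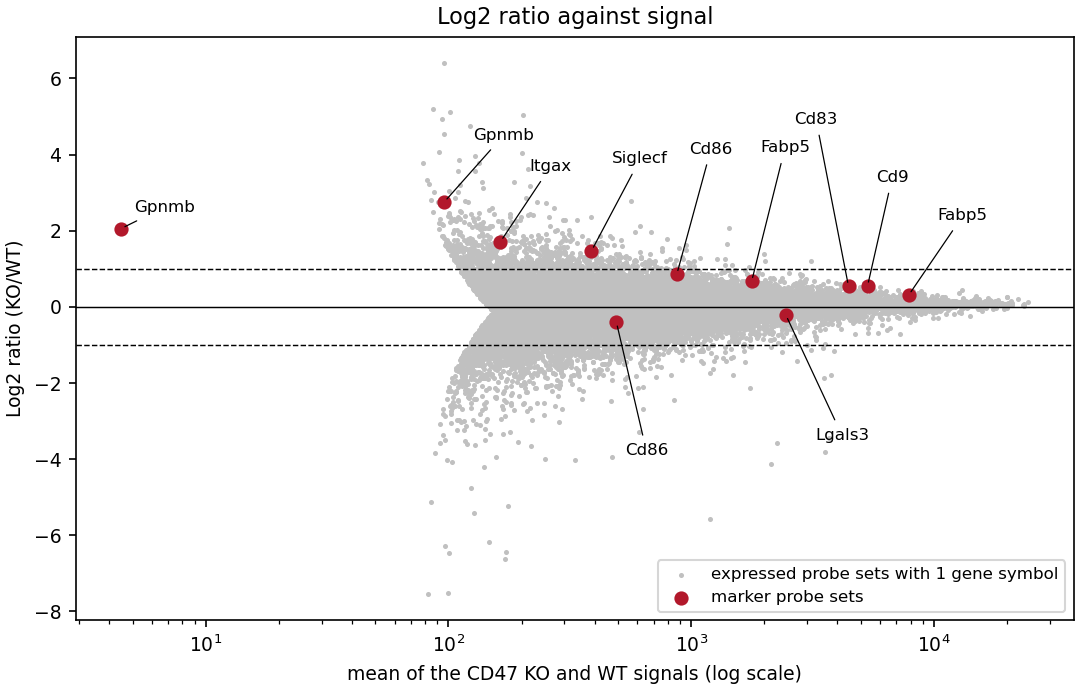
Log2 ratio (KO/WT) against the mean of the CD47 KO and WT signals (log scale) for all 21167 expressed probe sets with 1 gene symbol (grey) and the 11 marker probe sets (red), with dashed lines at 2-fold. *Gpnmb*, *Itgax* and *Siglecf* lie at low signal where the grey cloud is wide, and the brighter markers lie below the 2-fold line. Probe sets below the array median in both genotypes are left out of the grey points.

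The stretches before the transcription starts of these 3 genes are shown because the genes were the ones past 2-fold. They are the 250 bases upstream of a RefSeq start in GRCm38.p6, all on the forward strand, with matches to the searched motifs in capitals. The windows are chr7:128129300-128129549 for *Itgax*, chr6:49036268-49036517 for *Gpnmb* and chr7:43351091-43351340 for *Siglecf*. The *Itgax* window belongs to a start that lies within the annotated gene, which begins at 128129526.
Itgax: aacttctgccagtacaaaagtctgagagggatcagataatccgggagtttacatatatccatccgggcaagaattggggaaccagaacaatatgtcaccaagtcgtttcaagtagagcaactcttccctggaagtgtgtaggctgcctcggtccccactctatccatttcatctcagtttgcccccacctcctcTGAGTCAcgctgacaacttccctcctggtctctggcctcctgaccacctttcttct
Gpnmb: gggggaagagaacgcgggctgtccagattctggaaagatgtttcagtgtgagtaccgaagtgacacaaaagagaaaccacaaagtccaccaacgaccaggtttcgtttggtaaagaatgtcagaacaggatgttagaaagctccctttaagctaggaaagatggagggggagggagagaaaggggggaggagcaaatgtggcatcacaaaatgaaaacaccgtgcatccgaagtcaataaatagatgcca
Siglecf: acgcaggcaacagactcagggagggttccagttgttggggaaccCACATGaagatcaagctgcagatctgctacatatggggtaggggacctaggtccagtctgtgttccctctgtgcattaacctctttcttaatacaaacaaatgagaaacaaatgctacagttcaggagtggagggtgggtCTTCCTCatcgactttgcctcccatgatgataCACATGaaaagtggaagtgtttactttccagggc

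Searched on both strands were GAGGAAG (the binding motif of PU.1, the ETS factor of myeloid cells), CACGTG (the E-box), CATGTG (an E-box variant bound by MITF and its relatives), TGACTCA (the AP-1 motif) and TATAAA (the TATA box). These were present in 10.6%, 6.02%, 12.3%, 4.46% and 12.4%, in that order, of all 32851 windows of this length in the table. The *Itgax* window held 1 AP-1 match, 56 to 50 bases before the start. The *Siglecf* window held 1 PU.1 match, 66 to 60 bases before the start, and CATGTG at 206 to 201 and at 34 to 29 bases, and the *Gpnmb* window held none of the 5 motifs. Of the markers with smaller differences, *Cd9* had 1 CATGTG match and *Lgals3* had none, and the table holds no window for *Fabp5*, *Cd83* or *Cd86*. No motif was shared by the 3 windows.

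*Cd86* and *Cd83* are genes of antigen presentation. *Cd86* encodes B7-2, the ligand of CD28 and CTLA4 on T cells, and its 2 probe sets disagreed. The brighter one (1449858_at) had a signal of 1121 in CD47 KO cells and 622 in WT cells, a Log2 ratio of 0.85 (1.80-fold). The other (1420404_at) had 424 in CD47 KO cells and 559 in WT cells, a Log2 ratio of -0.40. Both are annotated to the same RefSeq transcript of *Cd86*, their ratios differed by 1.25, and their mean was 0.23. The direction of *Cd86* therefore depended on the probe set that was read.

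*Cd83* encodes an immunoglobulin superfamily protein of mature dendritic cells, B cells and activated microglia. It had a signal of 5258 in CD47 KO cells and 3625 in WT cells, a Log2 ratio of 0.54 (1.45-fold). In the brightest 25% of expressed probe sets, where it lies, 3.36% had a ratio at least as high, and 0.189% were more than 2-fold higher.

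*Cd9*, which encodes a tetraspanin that organises integrins and other proteins in the membrane, had a signal of 6308 in CD47 KO cells and 4327 in WT cells. Its Log2 ratio was 0.54 (1.46-fold), and 3.17% of the brightest group had one at least as high. *Cd9* is also a gene of oligodendrocytes and endothelial cells.

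*Fabp5* encodes the epidermal fatty acid-binding protein, a carrier of fatty acids in the cytosol. Its brighter probe set (1416021_a_at) had a signal of 8693 in CD47 KO cells and 7023 in WT cells, a Log2 ratio of 0.31 (1.24-fold). The other (1416022_at) had 2174 in CD47 KO cells and 1369 in WT cells, a Log2 ratio of 0.67 (1.59-fold). Both were higher in CD47 KO cells, and the difference between them, 0.36 on the log2 scale, was larger than the ratio of the brighter one.

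*Lgals3*, which encodes galectin-3, a secreted lectin of phagocytes also made by monocytes and neutrophils, was the only marker that was lower on its brightest probe set. Its signal was 2273 in CD47 KO cells and 2625 in WT cells, a Log2 ratio of -0.21. Of the brightest group, 84.2% of probe sets had a ratio at least as high. The ratio was smaller than the SD of 0.322 between probe sets of a gene at this brightness.

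The markers thus split by brightness. The 3 past 2-fold had WT signals of 24.8, 76.6 and 206 on their brightest probe sets, and the other 5 genes had WT signals of 622 and above. The signal of a probe set does not rank transcripts against each other, so this order is one of probe brightness.

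Most of these proteins act through partners, whose genes were taken from lists written from knowledge of each family. The lists were chosen with earlier results of these data known, so their counts and medians are descriptions. Here and in the lists below, each gene was read on its brightest expressed probe set unless another is named. CD11c pairs with CD18, the β2 integrin chain. *Itgb2*, which encodes CD18, had a signal of 5879 in CD47 KO cells and 5372 in WT cells, a Log2 ratio of 0.13. *Itgam*, encoding CD11b, the other main α chain of microglia, had 1694 in CD47 KO cells and 1378 in WT cells, a Log2 ratio of 0.30. Of 6 expressed genes of β2 integrins and their ligand and activators, 5 were higher, none passed 2-fold in either direction on its brightest probe set, and the median was 0.25. On these probe sets the highest ratio was 0.36, of *Tln1*, below that of *Itgax*. Another expressed probe set of *Tln1* had a Log2 ratio of 1.12. *Itgax* passed the signal threshold through the CD47 KO array alone.

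Of the 8 expressed receptor genes of osteopontin, the product of *Spp1*, 7 were higher in CD47 KO cells with a median of 0.14. The brightest, *Itgav*, had a Log2 ratio of 0.11. *Itga5*, which encodes the α chain of the fibronectin receptor, was the 1 gene past 2-fold on its brightest probe set. It had a signal of 73.0 in CD47 KO cells and 274 in WT cells, a Log2 ratio of -1.91, and reached the array median in WT cells alone. Among dimmer expressed probe sets, the highest ratio was 2.10 for *Itgb1* and 1.27 for *Itgb3*, and the lowest for *Itga4* was -1.12.

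*Gpnmb* is a known target of the MiT transcription factors in melanocytes and osteoclasts. *Mitf* had a signal of 768 in CD47 KO cells and 690 in WT cells, a Log2 ratio of 0.15, and -0.24 on its other expressed probe set. *Tfeb*, the regulator of lysosomal genes, was dim, with 159 in CD47 KO cells and 94.8 in WT cells, a Log2 ratio of 0.74. It reached the array median in CD47 KO cells alone. Of the 5 expressed genes of this list, 3 were higher, none passed 2-fold, and the median was 0.00, with a sign that changed in 4 of 9 alternatives. The brightest was *Adam10*, a sheddase gene, with 0.00.

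Few family members of the other markers passed 2-fold. Of 9 expressed tetraspanin genes and CD9 partners, 8 were higher, with a median of 0.16 and none past 2-fold, and the brightest, *Cd53*, had a Log2 ratio of 0.16. The ratios farthest from 0 were those of *Ptgfrn* (0.79), which encodes a CD9 partner, and *Cd82* (-0.76), a tetraspanin gene with a signal of 1977 in CD47 KO cells and 3345 in WT cells. The galectin list had 4 expressed genes, those of 3 galectins and of the galectin-binding protein *Lgals3bp*, with 3 lower and a median of -0.22. *Lgals1*, the brightest, had a signal of 12878 in CD47 KO cells and 15290 in WT cells, a Log2 ratio of -0.25. *Lgals8* (-0.27) and *Lgals3bp* (-0.20) were lower as well, and *Lgals9* (0.28) was higher.

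Of the 4 expressed genes of fatty acid-binding proteins and their nuclear receptor, 3 were lower, with a median of -0.24. *Fabp3*, the brightest, had a Log2 ratio of -0.17, and *Ppard*, which encodes the receptor, was past 2-fold with a signal of 114 in CD47 KO cells and 232 in WT cells. *Ppard* reached the array median in WT cells alone. *Fabp5* was higher in CD47 KO cells than in WT cells while this list was lower on the median.

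Among the Siglecs and their phosphatases 4 of 6 expressed genes were higher, none past 2-fold, with a median of 0.28 that became -0.12 with no signal threshold. *Siglech*, a microglial Siglec and the brightest, had a Log2 ratio of 0.19. *Siglece*, an inhibitory Siglec of microglia and neutrophils, had a signal of 715 in CD47 KO cells and 411 in WT cells, a Log2 ratio of 0.80, and *Cd33* had 0.38. The ratio of *Siglecf* was above each of these.

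The receptors and fellow ligands of CD86 had 2 of 6 expressed genes higher and a median of -0.24, which became 0.39 when a signal at the 75th percentile was required, where *Icosl* alone was left. *Icosl*, the brightest, had a Log2 ratio of 0.39. *Cd28*, the receptor on T cells, was past 2-fold with a signal of 44.1 in CD47 KO cells and 170 in WT cells, a Log2 ratio of -1.95. It reached the array median in WT cells alone. *Cd80*, the closest relative of *Cd86*, had 305 in CD47 KO cells and 345 in WT cells, a Log2 ratio of -0.18, and 0.69 on its other expressed probe set.

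A list of 39 further genes of activated microglia gave the setting of the markers. In CD47 KO cells 30 of the 35 expressed genes were higher, 6 of them by more than 2-fold. Of all expressed genes, 50.3% were higher and 3.56% were more than 2-fold higher. The other 5 were lower, all by less than 2-fold, and the list had a median of 0.23. The 6 were *Mmp12* (3.20), a macrophage metalloproteinase gene, *Igf1* (1.97), a growth factor gene, *Ch25h* (1.85), a cholesterol hydroxylase gene, *Cst7* (1.65), a cystatin gene, *Lpl* (1.29), the lipoprotein lipase gene, and *Apoc1* (1.23), an apolipoprotein gene, each with its Log2 ratio. Of these 6, *Mmp12* and *Ch25h* reached the array median in CD47 KO cells alone, so the threshold itself favoured a higher value for them. The WT signal of *Mmp12* also lay below the 25th percentile of the WT array, so the size of its ratio is uncertain. *Ccl3*, a chemokine gene and the brightest of the list, had 0.25. This list was written with results of these arrays known, and its count is no independent evidence of its direction. Homeostatic microglia genes stood at a median of 0.19, with all 17 expressed genes higher and none past 2-fold. Their brightest members were *Csf1r*, the growth factor receptor gene of microglia, with 0.07, and *Olfml3* with 0.43. With that median of 0.19 subtracted, an alternative added after the values had been seen, the Log2 ratios of *Gpnmb*, *Itgax* and *Siglecf* were 2.56, 1.52 and 1.28, that of *Cd9* was 0.36, that of *Cd83* was 0.35 and that of the brighter *Fabp5* probe set was 0.12.

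**Figure D3:**
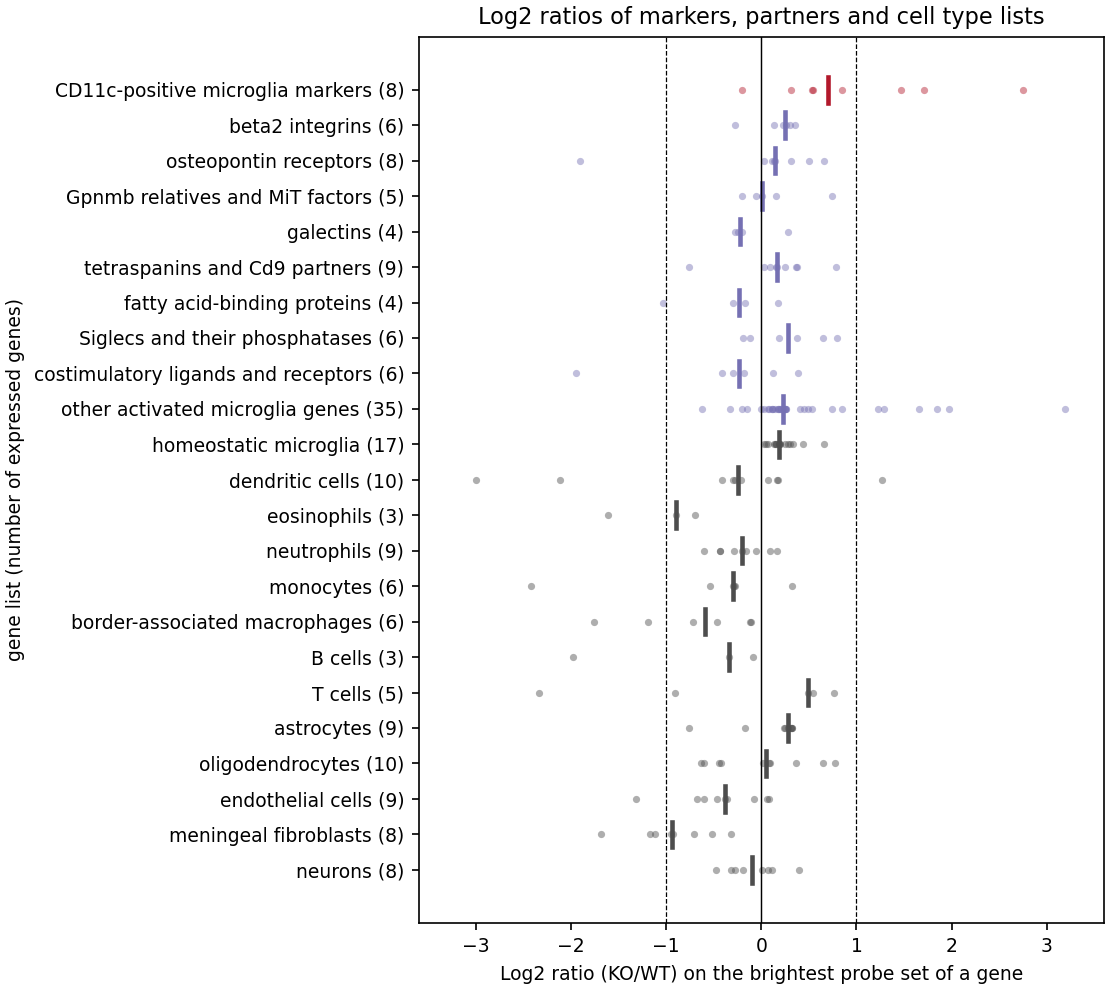
Log2 ratio (KO/WT) of each expressed gene (points) and the median (bar) for the markers (red), their partners and pathways (purple) and cell type lists (grey), with the number of expressed genes in parentheses, 1 array per genotype and dashed lines at 2-fold. The markers, chosen with their values known, have a median of 0.70, which was 0.54 when the array median was required on both arrays. The homeostatic microglia genes all lie above 0, and the eosinophil and meningeal fibroblast genes all lie below 0.

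Other cells of the preparation also express some of the markers, so their own genes are given beside them. CD11c and CD86 are borne by dendritic cells. Of 13 dendritic cell genes 10 were expressed, with 4 higher and 6 lower, a median of -0.24, and a summed signal of 7625 in CD47 KO cells and 8063 in WT cells. The brightest, *Fscn1*, which neurons and glia express as well, had a Log2 ratio of 0.07 and *Cd209a* had -0.42. Of the defining genes, *Flt3*, the growth factor receptor of dendritic cells, had a signal of 31.8 in CD47 KO cells and 255 in WT cells, and *Zbtb46* had 388 and 476 in the same order. *Ccr7*, the homing receptor of migratory dendritic cells, was in the opposite direction with 160 in CD47 KO cells and 66.6 in WT cells, a Log2 ratio of 1.27. *Flt3* reached the array median in WT cells alone, and *Ccr7* in CD47 KO cells alone.

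Siglec-F is borne by eosinophils. Of 7 eosinophil genes 3 were expressed, all of them lower in CD47 KO cells, with a median of -0.90 and a summed signal of 6181 in CD47 KO cells and 10297 in WT cells. *Prg2*, which encodes the major basic protein, had a signal of 5506 in CD47 KO cells and 8944 in WT cells, and *Prg3* had a Log2 ratio of -0.90. *Epx*, the eosinophil peroxidase gene, had 79.6 in CD47 KO cells and 244 in WT cells, and reached the array median in WT cells alone. *Ccr3* and *Il5ra* of this list were below the median on both arrays. *Siglecf* and the 3 expressed genes of this list thus differed in opposite directions, and the part of eosinophils in the *Siglecf* value was not tested.

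Galectin-3 is also made by monocytes and neutrophils, whose genes were mostly lower in CD47 KO cells, as *Lgals3* was. Of 6 expressed monocyte genes 5 were lower, with a median of -0.29 and a summed signal of 19067 in CD47 KO cells and 23305 in WT cells, and *Chil3* (-0.29) and *Plac8* (-0.27) were the brightest. Of 9 expressed neutrophil genes 7 were lower, with a median of -0.20 and a summed signal of 74732 in CD47 KO cells and 77406 in WT cells, while the brightest, *S100a9* (0.09) and *S100a8* (0.16), were higher. The part of these cells in the *Lgals3* value was not tested.

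Border-associated macrophages express CD11c in part, and B cells express CD83 and CD86. All 6 expressed genes of border-associated macrophages were lower, with a median of -0.60 and a summed signal of 3028 in CD47 KO cells and 4318 in WT cells, and the brightest were *Stab1* (-0.11) and *Pf4* (-0.47). All 3 expressed B cell genes were lower, with a median of -0.34 and a summed signal of 1707 in CD47 KO cells and 2275 in WT cells, and the brightest were *Cd79b* (-0.09) and *Cd79a* (-0.34). The medians of these cell type lists were below 0, over as few as 3 expressed genes. The part of these cells in the values of *Itgax*, *Gpnmb* and *Siglecf* was not tested. As the cells were not sorted, the arrays do not assign a marker to a cell type.

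**Figure D4:**
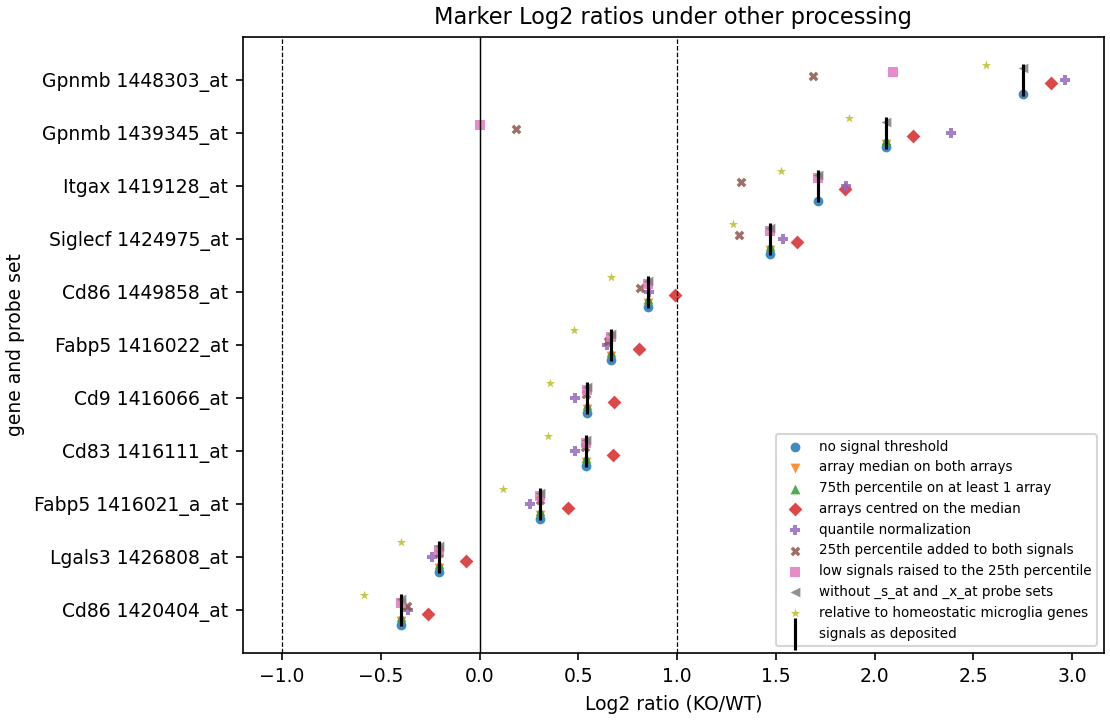
Log2 ratio (KO/WT) of each marker probe set with the signals as deposited (black bars) and under 9 other ways of processing (symbols), with dashed lines at 2-fold; a setting is missing where its threshold left the probe set out, except for the dimmer *Gpnmb* probe set, which is shown throughout. All other probe sets kept their direction, *Itgax* lay between 1.33 and 1.85 and *Siglecf* between 1.28 and 1.61, and *Lgals3* lay between -0.40 and -0.07.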

How the data were processed

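Brain mononuclear cells of CD47 KO and WT mice were compared on 1 array per genotype. The deposited signal intensities are MAS5 values, 1 linear value per probe set, which the authors made with the Expression Console Software (version not given). The mean after removal of 2% of values at each end was 500.002 on both arrays. Of 45101 probe sets, 64 are controls and were left out, and 932 with several symbols and 9224 with none here (controls included) were not named. Depth does not apply to arrays, and their number limits the precision. Symbols were updated through gene identifiers in the RefSeq table of GRCm38.p6, which holds those of 34741 probe sets. Log2 ratios (KO/WT) were taken with no offset. Each gene was read on the expressed probe set that was brightest over both arrays.

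The markers and the 22 lists (9 of pathways and 13 of cell types, 234 genes, 218 with a named probe set) were chosen with earlier results of these data known. Named were all markers, of each pathway list the genes past 2-fold and the brightest, and of each cell type list the 2 brightest. *Itgam*, *Mitf*, *Tfeb*, *Ptgfrn*, *Cd82*, *Lgals3bp*, *Lgals8*, *Lgals9*, *Cd3e*, *Siglece*, *Cd33*, *Cd80*, *Flt3*, *Zbtb46*, *Ccr7*, *Epx*, *Xist* and *Eif2s3y* were named after their values were seen. So were *Tln1*, *Itgb1*, *Itgb3*, *Itga4*, *Ccr3* and *Il5ra*. The 10 other settings, 1 of them added after the values were seen, are given in the closing section. The calculation was tested on simulated arrays. Python 3.11.15, numpy 2.4.6, pandas 2.3.3 and matplotlib 3.10.9 were used.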

Additional observations from a re-analysis of the deposited data

How the results depend on the processing

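Each alternative changed 1 choice. The count of markers more than 2-fold higher was 1 in place of 3, by probe set and by gene, when the array median was required on both arrays or the threshold was the 75th percentile on at least 1 array. Those thresholds leave out *Itgax* and *Gpnmb* by construction, and *Siglecf* is the gene that was left. In the other 8 alternatives the count by gene was 3, and by probe set it was 3 or, with no threshold, 4. No marker was more than 2-fold lower in any of the 10, and no expressed marker probe set changed direction. The dimmer probe set of *Gpnmb*, not expressed, had a Log2 ratio of 0 with low signals raised to the 25th percentile of 39.2. The lowest ratio of *Gpnmb* was 1.69, with the 25th percentile added to both signals, and the highest was 2.96, after quantile normalization. The median of the marker genes lay between 0.51 and 0.83. The shares of all genes past 2-fold ranged from 1.28% to 8.18% higher and from 2.12% to 12.2% lower, with the lowest values under stricter signal thresholds and the highest with none. The mean over probe sets does not apply to values of single probe sets. No paired analysis was possible because each genotype has 1 array. The WT signals of *Gpnmb* and *Itgax* lay below the array median, which limits the precision of their ratios.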

Other observations

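RNA of genes typical of neurons and macroglia was measured in the preparation as well. Of 9 expressed astrocyte genes 7 were higher in CD47 KO cells with a median Log2 ratio (KO/WT) of 0.28, close to that of several partner lists of the markers, and the brightest were *Slc1a2* (0.28), a glutamate transporter gene, and *Gja1* (0.25), a gap junction gene. Oligodendrocyte genes, among which *Cd9* could also be counted, had 6 of 10 higher and a median of 0.05, or -0.20 once probe sets with the suffixes _s_at and _x_at were left out, with *Cnp* at 0.09 and *Mbp* at 0.02. Neuronal genes had 4 of 8 higher and a median of -0.09, which was 0.04 with the arrays centred on their medians, with *Snap25* at 0.00 and *Nefl* at 0.07.

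Genes of the vessel wall and meninges were lower. All 8 expressed genes of meningeal fibroblasts were lower in CD47 KO cells, with a median of -0.94, 3 of them more than 2-fold, and the brightest were *Igf2* (-0.52) and *Col1a2* (-1.11). Of 9 expressed endothelial genes 7 were lower with a median of -0.38, and the brightest were *Slco1a4* (0.08) and *Cldn5* (-0.47). T cell genes were divided, with 3 of 5 expressed genes higher and a median of 0.49, which was 0.02 with no signal threshold. *Cd3d* (0.54) and *Cd247* (0.49) were the brightest, while *Cd3e* was at -2.34. *Cd3e* had a signal of 64.3 in CD47 KO cells and 326 in WT cells, and reached the array median in WT cells alone.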
